A study of Mus musculus with 48 samples.

Results

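Heat shock chaperones bind unfolded or newly made proteins and help them to fold, and many of their genes are induced together by heat shock factors when proteins misfold. HSP70 proteins bind short hydrophobic stretches and are driven through their ATP cycle by J proteins and by exchange factors of the HSP110 and BAG families. HSP90, with a set of co-chaperones, takes over partly folded clients such as kinases and steroid receptors. TRiC encloses newly made actin and tubulin in a double ring, and HSP60 with its lid HSP10 encloses proteins of the mitochondrial matrix.

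The genes described here are the cytosolic and mitochondrial heat shock chaperones of this time course, 40 genes listed by family (HSP70 and HSP110, HSP90 and its co-chaperones, small heat shock proteins, J proteins, BAG proteins, TRiC, mitochondrial chaperones and heat shock factors) and not by their values. Of these, 37 had a probe set that was annotated to a single gene, out of 18193 such genes on the array. Hsp90ab1, Hsf1 and Ptges3 were not analysed here. The 37 genes were read on 99 probe sets, and each gene is shown by its brightest one. Names that end in _a_at, _s_at or _x_at mark probe sets that can share probes with other transcripts. Such names belong to the brightest probe sets of Hspa1b, Hspa8, Hsph1, Hspa14, Fkbp4, Hspb1, Cryab, Dnaja2 and Hspe1. Among the TRiC genes, those of Cct2, Cct3, Cct4, Cct6a and Cct8 have them too. The mean of 35 of the 37 genes exceeded the median over all probe sets, whereas Hspa1a and Hspb1, at a log2 value of 5.52 and 5.39 with hardly any spread, lay at the floor of the array. Other probe sets are described singly for some of the genes, and only where their own mean exceeded that median. The setting that averages all probe sets of a gene also takes in those below the median.

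The samples were NIH3T3 cells, an established line of mouse fibroblasts, whose clocks had been set by a forskolin shock that every culture received. RNA was taken each hour from hour 20 to hour 67, with 1 array per hour and 48 arrays in all, so that there was no untreated group and no replicate within an hour. The comparisons were therefore the course over time and the later window (hours 44 to 67) against the earlier window (hours 20 to 43), with 24 arrays each. The sources used here do not say whether the hours came from separate dishes, and p-values measure the spread between hourly arrays only. A cell line is 1 lineage, and whether its RNA per cell changed cannot be told apart from a change of a transcript's share.

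All 8 fibroblast markers exceeded the median over all probe sets, whereas none of 4 epithelial, 4 endothelial or 4 skeletal muscle markers did. Among 4 macrophage markers Cd68 did (mean 10.42), and of the 2 measured adipocyte markers Fabp4, a fatty acid carrier, did (mean 15.79), with a rise of 0.58 ± 0.03 log2 per 24 h (limma, adjusted p = 1.29e-19), while Adipoq lay at 5.39. The part of these transcripts in the results below was not tested. Array medians lay between 6.58 and 6.71 on the log2 scale. The β-actin 3′ minus 5′ probe set difference, a measure of RNA and labelling quality, exceeded 1.4 (log2) on 10 arrays (hours 20, 22, 24, 36, 38, 40, 43, 45, 46 and 67), 3 in the later window and 7 in the earlier one. The BioB spike-in was raised by 0.90 (log2) on the arrays of hours 52 to 55. Values of these arrays are given beside the results they touch.

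The first question was whether chaperone transcripts drifted over the 2 days. A line and a 24 h cosine were fitted to each probe set in limma, with Benjamini-Hochberg adjustment over all 45037 probe sets. Of the 37 genes, 7 rose with time, 20 fell and 10 did not pass the test. Over all probe sets 14.2% rose and 16.2% fell, and among the brightest probe sets of genes above the median 26.9% rose and 29.5% fell, so that drift was common in this series. The share of chaperone genes that rose was 18.9% and the share that fell was 54.1%. Their median slope was -0.07 log2 per 24 h, against -0.0115 for genes above the median. All 8 TRiC genes fell, as did 3 of 7 HSP70 and HSP110 genes, 3 of 6 genes of HSP90 and its co-chaperones, 3 of 6 J proteins, 1 of 3 BAG genes and 2 of 3 mitochondrial chaperones. The rises came from Cryab, Dnaja1, Hspa4l, Ahsa1, Chordc1, Hspa8 and Hspa9, which belong to 5 of the 8 families.

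**Figure D1:**
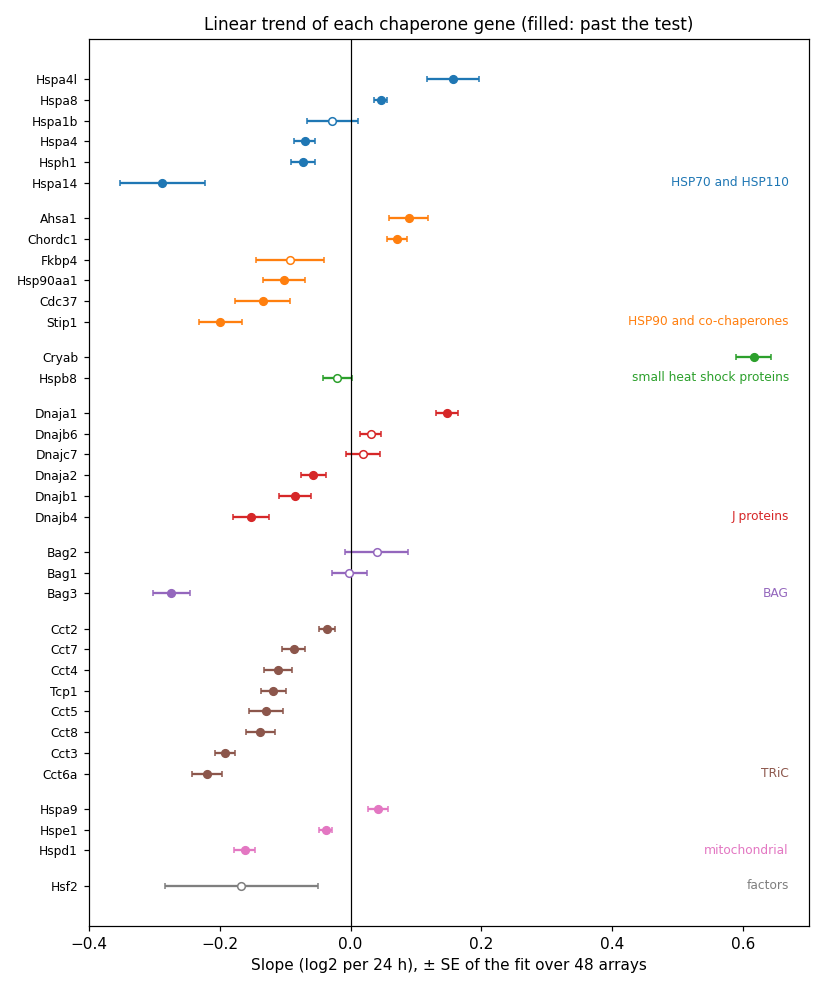
Linear slope (log2 per 24 h, with the SE of the fit over 48 arrays) of the 35 chaperone genes with a mean above the median, ordered by family. Filled points passed the test. All 8 TRiC genes lie left of 0, and Cryab lies at 0.62, far to the right of the others.

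Promoters were read from RefSeq (build GRCm38.p6) as the 250 bases before and 50 bases after each annotated start, and 33 of the 40 genes had a window. The core heat shock element was taken as GAANNTTC or TTCNNGAA, built from the GAA and TTC units that heat shock factors bind, and the long element as 3 such units in alternation (GAA, TTC and GAA, or TTC, GAA and TTC), each followed after 2 bases by the next. Each core form is its own reverse complement and the long forms are each other's, so that a search covers both strands, and overlapping matches were counted separately. The core element occurred in 17 of the 33 genes (51.5%) and in 17% of 27025 genes, and the long element in 5 (15.2%) against 0.662% of all genes. Matches are descriptions of the letters, not of binding. The genes that rose held the core element in 2 of 4 cases, those that fell in 9 of 18 and those that passed neither way in 6 of 10. The following stretches are shown because they hold the long element, or the core element of some of the genes described below, with the elements in capitals. Each runs 5′ to 3′ on the strand of its gene. Chordc1 (chr9:18292197-18292296, plus strand, positions -70 to 30) and Dnaja1 (chr4:40722318-40722417, plus strand, -150 to -51) rose with time.
Chordc1: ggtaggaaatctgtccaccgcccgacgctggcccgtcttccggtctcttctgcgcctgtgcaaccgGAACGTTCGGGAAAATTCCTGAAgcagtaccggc
Dnaja1: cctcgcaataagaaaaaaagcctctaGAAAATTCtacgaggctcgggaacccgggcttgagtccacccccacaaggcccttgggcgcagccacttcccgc
Hspe1 (chr1:55088028-55088127, plus strand, -120 to -21), Hsph1 (chr5:149636286-149636385, minus strand, -70 to 30), Cct2 (chr10:117063376-117063455, minus strand, -80 to -1) and Cct5 (chr15:31601847-31601926, minus strand, -80 to -1) fell.
Hspe1: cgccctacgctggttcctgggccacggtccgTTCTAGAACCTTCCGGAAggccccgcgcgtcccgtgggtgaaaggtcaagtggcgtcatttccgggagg
Hsph1: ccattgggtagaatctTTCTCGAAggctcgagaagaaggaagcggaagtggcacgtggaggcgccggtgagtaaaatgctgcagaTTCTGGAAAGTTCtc
Cct2: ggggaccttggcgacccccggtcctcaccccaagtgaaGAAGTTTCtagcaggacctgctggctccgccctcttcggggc
Cct5: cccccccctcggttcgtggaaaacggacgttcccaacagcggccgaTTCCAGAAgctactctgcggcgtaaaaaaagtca
Hspa1b (chr17:34959289-34959368, minus strand, -130 to -51), Hspa1a (chr17:34972207-34972286, minus strand, -130 to -51) and Dnajb6 (chr5:29735808-29735887, plus strand, -90 to -11) did not pass the test for a trend.
Hspa1b: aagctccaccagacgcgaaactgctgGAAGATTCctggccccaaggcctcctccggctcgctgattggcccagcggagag
Hspa1a: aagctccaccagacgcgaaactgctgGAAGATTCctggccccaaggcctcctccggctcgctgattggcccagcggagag
Dnajb6: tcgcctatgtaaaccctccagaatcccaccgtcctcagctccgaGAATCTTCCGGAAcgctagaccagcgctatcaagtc
Chordc1, which encodes an HSP90-binding protein, held 5 overlapping or neighbouring core elements from position -4 to position 34, the last of which lies outside the stretch. The Hspe1 stretch is also the promoter of Hspd1, which runs the other way: the windows of the 2 genes share 285 bases, and the same 3 overlapping elements start at -89 for Hspe1 and at -144 for Hspd1. The stretches of Hspa1a and Hspa1b are identical over all 80 bases, and their whole windows over 296 of 300 bases. Bag3, Cct6a, Cdc37 and Dnajb4, which fell, held 1 core element each, and Fkbp4, Hspb1 and Hspb8, which did not pass, held it too. Their stretches are not shown. A gene was counted if any of its windows held the element, and other windows of Dnaja1, Cct2, Cct5, Dnajb4 and Hspd1 held none. Of the genes that rose or fell, Tcp1, Cct3, Cct7, Cct8, Stip1, Ahsa1, Dnaja2, Dnajb1, Hspa14, Hspa4 and Hspa4l held no core element in any window.

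TRiC, the cytosolic chaperonin of 8 different subunits, was the only family with more than 1 measured gene in which every member fell in the fit over all arrays. Slopes of its subunits lay between -0.22 (Cct6a) and -0.036 log2 per 24 h (Cct2), with a median of -0.124. Cct3 had a lowest, median and highest log2 value of 17.54, 17.68 and 17.79 in the later window, against 17.72, 17.87 and 18.08 in the earlier window, and fell by 0.19 ± 0.02 log2 per 24 h (SE; limma, adjusted p = 6.33e-15). The windows overlapped only slightly, and the means of the first 5 blocks of 6 h fell one after the other (17.95, 17.91, 17.83, 17.78 and 17.73). Cct6a had 16.97, 17.12 and 17.30 in the later window and 17.05, 17.34 and 17.70 in the earlier window, with a slope of -0.22 ± 0.02 (adjusted p = 6.4e-11). Its lowest array was hour 53 and its highest hour 24. Cct8 lay between 16.86 and 17.20 in the later window and between 16.98 and 17.36 in the earlier one, with a slope of -0.14 ± 0.02 (adjusted p = 1.47e-06). Tcp1, the founding subunit, gave -0.12 ± 0.02 (adjusted p = 2.4e-06), and Cct5, Cct4 and Cct7 gave slopes of -0.13, -0.11 and -0.09. Cct2 gave the smallest slope (-0.04 ± 0.01, adjusted p = 0.0198), which did not pass in 5 of 13 alternative settings: without hours 20 to 25 (-0.02, adjusted p = 0.29), when hours 52 to 55 had their own term (0.116), after array-median centring (0.0679), in the window contrast blocked by hour (0.067) and over 6 h blocks (0.186). With all probe sets of a gene averaged, Cct3 (-0.05, adjusted p = 0.144) and Cct4 (-0.04, adjusted p = 0.141) did not pass, although 3 other probe sets of Cct3 and 2 of Cct4 fell on their own. Both averages include probe sets near the floor of the array (mean 5.71 for Cct3, 5.26 and 5.41 for Cct4).

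For 7 of the 8 TRiC genes, and for 10 of all 37 chaperone genes, the highest of the 48 arrays was hour 24, where 7.36% of the brightest probe sets of genes above the median had theirs. Hour 24 was 1 of the arrays with a high β-actin difference. All 8 TRiC slopes passed without hours 24 and 67, where 32.3% of all probe sets fell, against 16.2% over all arrays. These slopes also passed when the β-actin difference entered the model, where 15.8% of all probe sets fell. After removal of the line, the 24 h cosine and the β-actin difference, the residuals of the TRiC subunits had a median pairwise correlation of 0.506 over 28 pairs (lowest 0.151), against 0.131 over the 595 pairs of all chaperone genes above the median. These points share their arrays and this is a description only. A pair of Cct3 with Cct8 and a pair of Cct2 with Cct5 were tested over the 48 arrays, within a family of 14 pairs. Cct3 and Cct8 gave r = 0.557 (rho = 0.554, 100000 permutations, two-sided, adjusted p = 0.00098), with 0.582 in the later window, 0.544 in the earlier window and 0.524 without the 2 arrays farthest from the median. Cct2 and Cct5 gave r = 0.388 (rho = 0.297, permutation test, adjusted p = 0.0188 for r and 0.0965 for rho), which became 0.222 without 2 arrays and -0.111 without the β-actin term, and so rests on these choices. The 6 prefoldin genes, whose product hands actin and tubulin to TRiC, did not share a direction: 1 rose (Pfdn5, 0.09), 1 fell (Pfdn4, -0.10), and 4 did not pass the test.

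**Figure D2:**
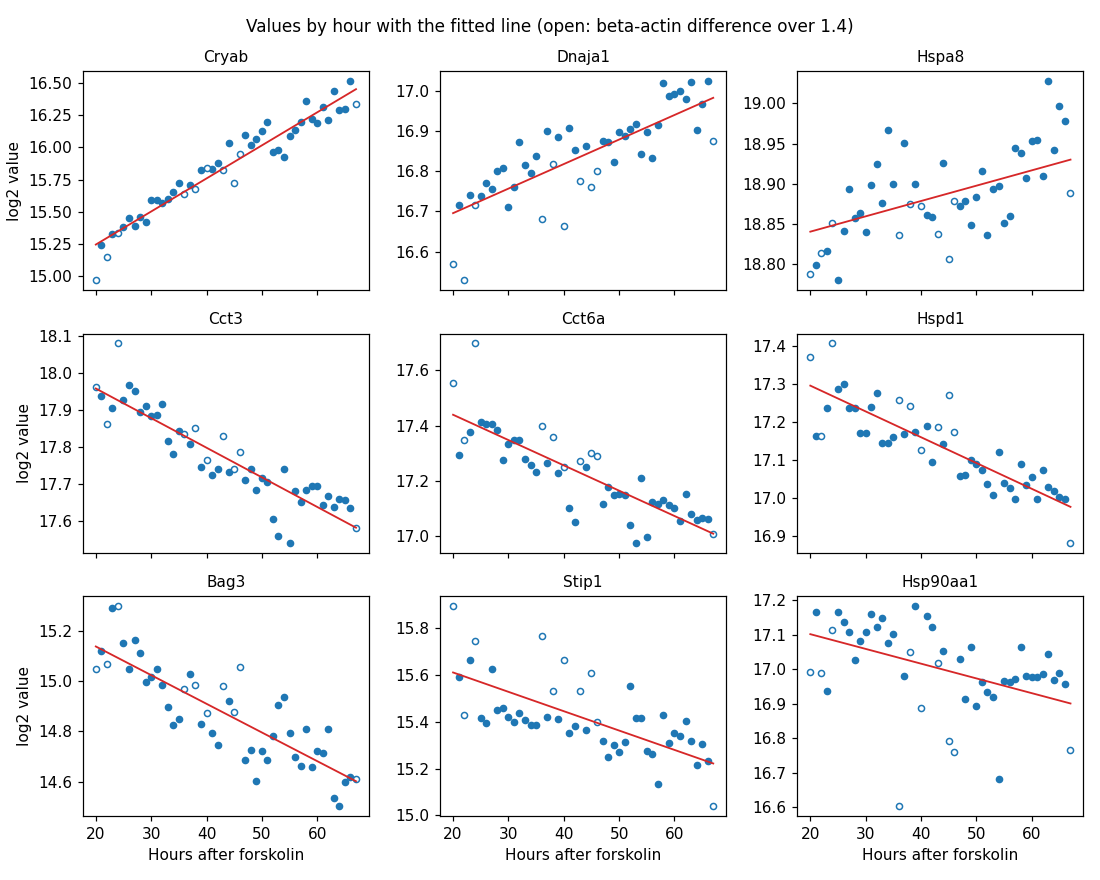
Log2 value of 9 chaperone genes at each hour after forskolin, 1 point per array, with the fitted line in red. Open points are the 10 arrays with a β-actin difference over 1.4. Cryab and Dnaja1 climb, Cct3, Cct6a, Hspd1 and Bag3 decline over most of the course, and the low open points of Hsp90aa1 fall at hours 36, 45, 46 and 67.

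Cryab, αB-crystallin, a small heat shock protein that holds unfolded proteins and intermediate filaments, gave the steepest rise of the 37 genes. It had a lowest, median and highest log2 value of 15.72, 16.16 and 16.52 in the later window, against 14.97, 15.59 and 15.88 in the earlier window. Its 6 h means were 15.23 ± 0.15, 15.48 ± 0.09, 15.65 ± 0.06, 15.81 ± 0.07, 15.98 ± 0.14, 16.05 ± 0.11, 16.24 ± 0.09 and 16.35 ± 0.11 (SD, n = 6 each) from hour 20 on. Each mean lay above the one before, and only the top of the earlier and the bottom of the later window overlapped. The slope was 0.62 ± 0.03 log2 per 24 h (limma, adjusted p = 1.25e-23), and the fitted line at hour 67 was 2.31-fold above that at hour 20. The second Cryab probe set gave a slope of 0.85 ± 0.05 (adjusted p = 5.02e-20). The slope of 0.62 stood at the 97.7 percentile of the brightest probe sets of genes above the median. The other small heat shock proteins did not pass: Hspb8, the partner of Bag3, gave -0.02 ± 0.02 on its brightest probe set, although a dimmer probe set of Hspb8 rose (0.21 ± 0.07, adjusted p = 0.00998), and Hspb1 lay at the floor.

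Bag3, which links HSP70 to Hspb8 and to the autophagic removal of clients, went the opposite way. It had 14.50, 14.72 and 15.06 in the later window and 14.74, 15.01 and 15.30 in the earlier window, with a slope of -0.27 ± 0.03 log2 per 24 h (limma, adjusted p = 3.39e-11) and a fitted value at hour 67 of 0.69 times that at hour 20. The windows overlapped, with the highest arrays at hour 24 and the lowest at hour 64. Bag1 and Bag2, the other measured exchange factors of this family, gave slopes of -0.002 ± 0.027 and 0.04 ± 0.05, and neither passed.

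The HSP70 genes did not move as a family. Hspa8, the constitutive cytosolic HSP70, had 18.81, 18.90 and 19.03 in the later window and 18.78, 18.86 and 18.97 in the earlier window, and rose by 0.05 ± 0.01 log2 per 24 h (limma, adjusted p = 0.000514). The windows overlapped over most of their range. Another Hspa8 probe set (mean 18.42) rose by 0.04. The remaining 2 did not pass, a brighter one (mean 18.66) at -0.01 and a dimmer one (mean 12.12) at -0.14. The exchange factors of the HSP110 type split. Hspa4l rose (0.16 ± 0.04, adjusted p = 0.0018), with a mean of 15.07 ± 0.10 at hours 62 to 67, against 14.69 ± 0.17 at hours 20 to 25 (SD, n = 6 each). Without hours 20 to 25 its slope did not pass (0.08, adjusted p = 0.162). Of 4 other Hspa4l probe sets above the median, 3 had a positive slope, and 1 of these passed. Hspa4 fell (-0.07 ± 0.02, adjusted p = 0.000504), with its other 2 probe sets above the median at 0.02 and 0.04, neither of which passed. Hsph1 fell by 0.07 ± 0.02 (adjusted p = 0.000997) on its brightest probe set and by 0.40 ± 0.05 (adjusted p = 6.25e-10) on a dimmer one.

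Hspa14, an HSP70-like protein that binds ribosomes, had 13.64, 14.40 and 14.78 in the later window and 14.04, 14.66 and 14.99 in the earlier window, with a slope of -0.29 ± 0.07 (limma, adjusted p = 0.000417). Its lowest values were 13.64, 13.85 and 13.90 at hours 52, 53 and 54, within the arrays of raised BioB, and the means of the blocks at hours 56 to 61 and 62 to 67 were 14.49 ± 0.10 and 14.48 ± 0.12 (SD, n = 6). A second probe set of Hspa14 fell by 0.09 ± 0.02 (adjusted p = 0.00141).

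Hspa1a and Hspa1b encode the heat-inducible HSP70 from neighbouring genes. The brightest Hspa1b probe set is of the _a_at kind, and whether it also reads Hspa1a was not tested. Hspa1b had a lowest, median and highest value of 16.13, 16.31 and 16.77 in the later window and of 16.10, 16.34 and 16.59 in the earlier window, so that the windows covered the same range. Its slope was -0.03 ± 0.04 log2 per 24 h (limma, adjusted p = 0.532). Hspa1b correlated with the β-actin difference at r = 0.71 over the 48 arrays (rho = 0.668, permutation p = 1e-05, the smallest that 100000 permutations can give, adjusted p = 5.29e-05 over 37 genes), with r = 0.82 in the later window, 0.675 in the earlier window and 0.729 without the 2 arrays farthest from the median. The 10 arrays of high difference had a median of 16.50 (16.21 to 16.77), against 16.28 (16.10 to 16.58) on the other 38. The groups overlapped, with the highest array at hour 45. Both dimmer Hspa1b probe sets gave r = 0.746 and 0.758. After the β-actin term, Hspa1b and Hsph1 were still correlated (r = 0.462, rho = 0.43, adjusted p = 0.00378 over 14 pairs, permutation test), with 0.238 in the later window and 0.641 in the earlier one. Hspa1b and Dnajb1 gave 0.142 with the term (adjusted p = 0.519) and 0.528 without it. Hspa1a and Hspa1b gave 0.508 (adjusted p = 0.0014, permutation test), but Hspa1a stayed within 5.50 and 5.54.

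**Figure D3:**
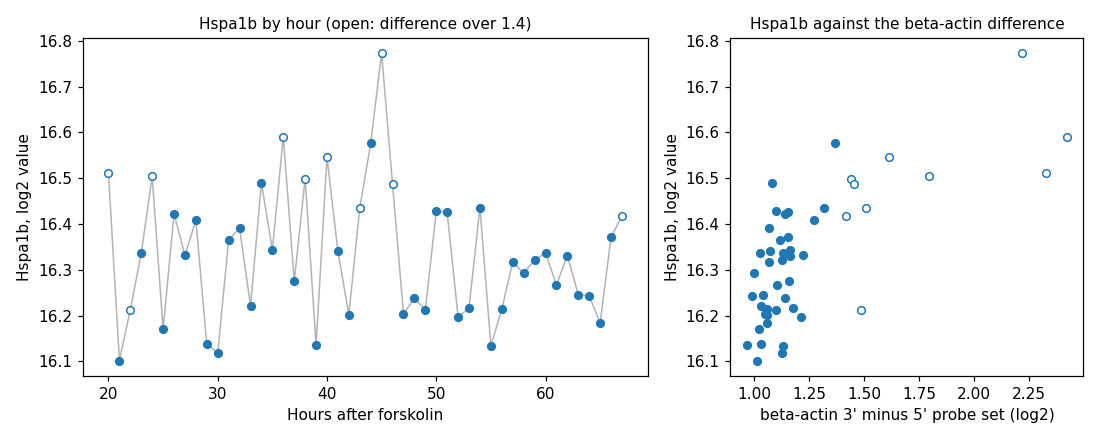
Hspa1b (log2 value) by hour after forskolin on the left and against the β-actin 3′ minus 5′ difference (log2) on the right, 1 point per array. Open points are the 10 arrays with a difference over 1.4, and the highest of them is hour 45 at 16.77.

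Of the 37 genes, 22 correlated with the β-actin difference past the adjusted threshold, 14 positively and 8 negatively. This relation was computed for the 37 genes only, so that no share over all probe sets is known. Whether the count is particular to chaperones cannot be told. The line was not removed first, and the difference itself had a mean of 1.197 in the later window and 1.299 in the earlier one. The strongest positive ones after Hspa1b were Hsph1 (r = 0.697), Cct8 (0.656), Cct4 (0.642), Stip1 (0.639), Cct5 (0.638), Dnajb1 (0.627), Fkbp4 (0.615), Tcp1 (0.59) and Bag2 (0.565), and the strongest negative ones were Hspa4l (-0.769), Ahsa1 (-0.571), Dnaja1 (-0.551), Hspa9 (-0.536) and Hsp90aa1 (-0.516), with adjusted p between 5.29e-05 and 0.00178 (permutation test, 48 arrays). Cct2 (-0.362, adjusted p = 0.0264) ran against the 5 other TRiC genes that passed. For Hspa4l the rank correlation was smaller (rho = -0.366), and r became -0.564 without the 2 farthest arrays. Once this difference entered the model, 2 of the 27 trends no longer passed, Ahsa1 (0.06, adjusted p = 0.0833) and Hspa9 (0.03, adjusted p = 0.106).

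Among the genes of the HSP90 machinery, Hsp90aa1, the inducible cytosolic HSP90, had 16.68, 16.97 and 17.06 in the later window and 16.60, 17.10 and 17.18 in the earlier window. It fell by 0.10 ± 0.03 log2 per 24 h (limma, adjusted p = 0.0101), with overlapping windows and its lowest array at hour 36, an array of high β-actin difference. With a term for hours 52 to 55 the slope was -0.08 (adjusted p = 0.0569). A second Hsp90aa1 probe set fell by 0.08 ± 0.02 (adjusted p = 0.0034) and another gave -0.03. Stip1, the adaptor that holds HSP70 and HSP90 together, fell more steeply (-0.20 ± 0.03, adjusted p = 2.69e-06), with 15.04, 15.31 and 15.61 in the later window and 15.35, 15.43 and 15.89 in the earlier one. Cdc37, which brings kinases to HSP90, fell by 0.13 ± 0.04 (adjusted p = 0.011), and without hours 24 and 67 its slope of -0.09 did not pass (adjusted p = 0.0514), nor did its window contrast blocked by hour (adjusted p = 0.0832). Chordc1 and Ahsa1, an HSP90-binding protein and the activator of its ATPase, rose by 0.07 ± 0.02 (adjusted p = 0.000178) and 0.09 ± 0.03 (adjusted p = 0.0224). The rise of Ahsa1 did not pass without the array of hour 20 (0.07, adjusted p = 0.0922). Fkbp4, a prolyl isomerase of steroid receptor complexes, gave -0.09 ± 0.05 (adjusted p = 0.133).

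J proteins deliver clients to HSP70 and trigger its ATPase. Dnaja1, a farnesylated HSP40, had 16.76, 16.90 and 17.03 in the later window and 16.53, 16.77 and 16.91 in the earlier window, and rose by 0.15 ± 0.02 log2 per 24 h (limma, adjusted p = 1.5e-09). Its lowest array was hour 22 and its highest hour 66, and the windows overlapped. A dimmer Dnaja1 probe set rose by 0.05 (adjusted p = 0.0493) and another gave -0.03. Dnajb4 fell by 0.15 ± 0.03 (adjusted p = 1.48e-05) and Dnajb1, the major heat-inducible HSP40, by 0.08 ± 0.02 (adjusted p = 0.00435). The slope of Dnajb1 was -0.04 (adjusted p = 0.114) once the 10 arrays over 1.4 were left out. A dimmer Dnajb1 probe set had a slope of the opposite sign that did not pass. With all probe sets of Dnajb1 averaged the slope was -0.015 (adjusted p = 0.681). Dnaja2 fell by 0.06 ± 0.02 (adjusted p = 0.021) on its brightest probe set, which is of the _s_at kind, whereas another probe set of Dnaja2 rose by 0.19 ± 0.03 (adjusted p = 1.39e-05), so that its direction depends on the probe set. The window contrast of the brightest one, blocked by hour, did not pass (adjusted p = 0.0937). Dnajb6, which keeps aggregation-prone proteins soluble, and Dnajc7 gave 0.03 and 0.02 and did not pass.

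The mitochondrial chaperones also differed among themselves. Hspd1, which forms the HSP60 ring, had 16.88, 17.05 and 17.27 in the later window and 17.09, 17.19 and 17.41 in the earlier window, and fell by 0.16 ± 0.02 log2 per 24 h (limma, adjusted p = 7.86e-12). Its 8 successive 6 h means fell at each step, although the windows overlapped. Hspe1, the HSP10 lid transcribed from the shared promoter shown above, fell by 0.04 ± 0.01 (adjusted p = 0.00336), with 17.92, 18.05 and 18.13 in the later window and 18.02, 18.08 and 18.15 in the earlier one. The slope of Hspe1 did not pass after array-median centring (-0.03, adjusted p = 0.0674). A second Hspe1 probe set fell by 0.07 ± 0.02 (adjusted p = 0.00174). The hourly residuals of the pair were correlated (r = 0.45, rho = 0.415, adjusted p = 0.00476, permutation test over 48 arrays), with 0.711 in the later window, 0.195 in the earlier window and 0.327 without the 2 farthest arrays. Without the β-actin term r was 0.263 and did not pass (adjusted p = 0.10). Hspa9, the HSP70 of the matrix and of the import motor, had 17.52, 17.69 and 17.74 in the later window and 17.43, 17.67 and 17.73 in the earlier one. Its rise of 0.04 ± 0.02 (adjusted p = 0.0373) did not pass when any of 7 single arrays (hours 20, 22, 23, 36, 47, 49 or 65) was left out, with slopes of 0.033 to 0.040, while both other Hspa9 probe sets above the median rose (0.05 and 0.54). Hsf2, the one measured heat shock factor of the list, ranged from 7.16 to 9.24 and gave a slope of -0.17 ± 0.12 (adjusted p = 0.218).

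**Figure D4:**
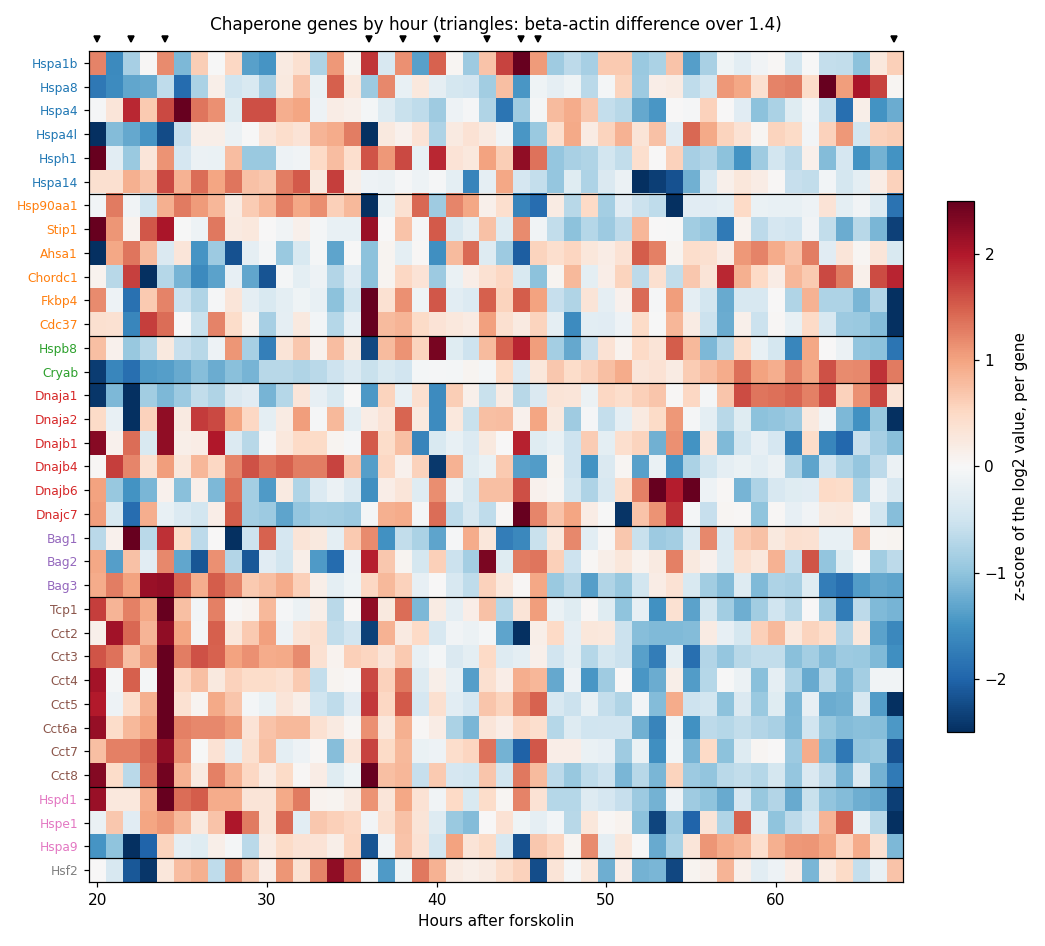
Z-scores of the log2 values of the 35 chaperone genes above the median, 1 column per hour after forskolin, with families separated by lines. Triangles mark the 10 arrays with a β-actin difference over 1.4. The TRiC rows are red at hour 24 and mostly blue after hour 50, and Cryab and Dnaja1 run the other way.

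Of the 27 genes that rose or fell, 19 had another probe set above the median, and for 16 of these at least 1 other probe set passed in the same direction. A single one passed in the opposite direction, that of Dnaja2.

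The second question was whether any chaperone transcript followed the clock that forskolin had set. None of the 37 genes passed the test for a 24 h cosine (limma, 0 of 37 after adjustment, 4 at an unadjusted p under 0.05), while 0.293% of all probe sets and 0.704% of the genes above the median did. At an unadjusted p under 0.05 the share over all probe sets was 9.45%, so that 4 of 37 is near the background. Fisher's G-test called 1 gene, Hspa8 (peak at 24 h, exact p = 0.0039, adjusted p = 0.0158), and 0.782% of all probe sets. That test was run without removal of the line, and at any period 24323 of the 45037 probe sets had an unadjusted p under 0.05. The 4 genes at an unadjusted p under 0.05 were Hspa8 (amplitude, mean to peak, 0.03 ± 0.01 log2, p = 0.00392), Hspa4l (0.10 ± 0.03, p = 0.00718), Hspa4 (0.03 ± 0.01, p = 0.0351) and Hsph1 (0.04 ± 0.01, p = 0.0435), with unadjusted p from limma. Hspa4l passed without the array of hour 36 (0.11 ± 0.03, adjusted p = 0.0422). Hsf2 had the largest fitted amplitude of the 37 genes (0.22 ± 0.09, adjusted p = 0.597), and the median amplitude was 0.025, against 0.05 for genes above the median. A dimmer Dnajb6 probe set passed (0.19 ± 0.04, adjusted p = 0.0247, fitted peak at hour 20.5), with the brightest Dnajb6 probe set at 0.02 ± 0.01. It was singled out after its values were seen.

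Chaperones of another compartment served for comparison. Of 16 endoplasmic reticulum chaperones, 6 passed the test for a 24 h cosine, among them Sdf2l1 (0.39 ± 0.06, adjusted p = 0.000155), a component of the chaperone complex of that compartment, Manf (0.16 ± 0.03, adjusted p = 0.00199), Pdia6 (0.16 ± 0.03, adjusted p = 0.003), a disulphide isomerase, and Creld2 (0.19 ± 0.04, adjusted p = 0.0157). Their fitted peaks lay between hour 38.9 and hour 41.1. Hsp90b1, the HSP90 of the endoplasmic reticulum, was added as the counterpart of Hsp90aa1 after its values were seen, and passed as well (0.11 ± 0.02, adjusted p = 0.0363), whereas cytosolic Hsp90aa1 gave 0.03 ± 0.03 (adjusted p = 0.956). The difference between the lists was not tested. These fits held no β-actin term, and the part of the β-actin difference in the 6 results was not tested. Over all probe sets 132 passed the test for a 24 h cosine in the main fit. With the β-actin difference in the model 79 passed, and without the arrays over 1.4 there were 55.

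**Figure D5:**
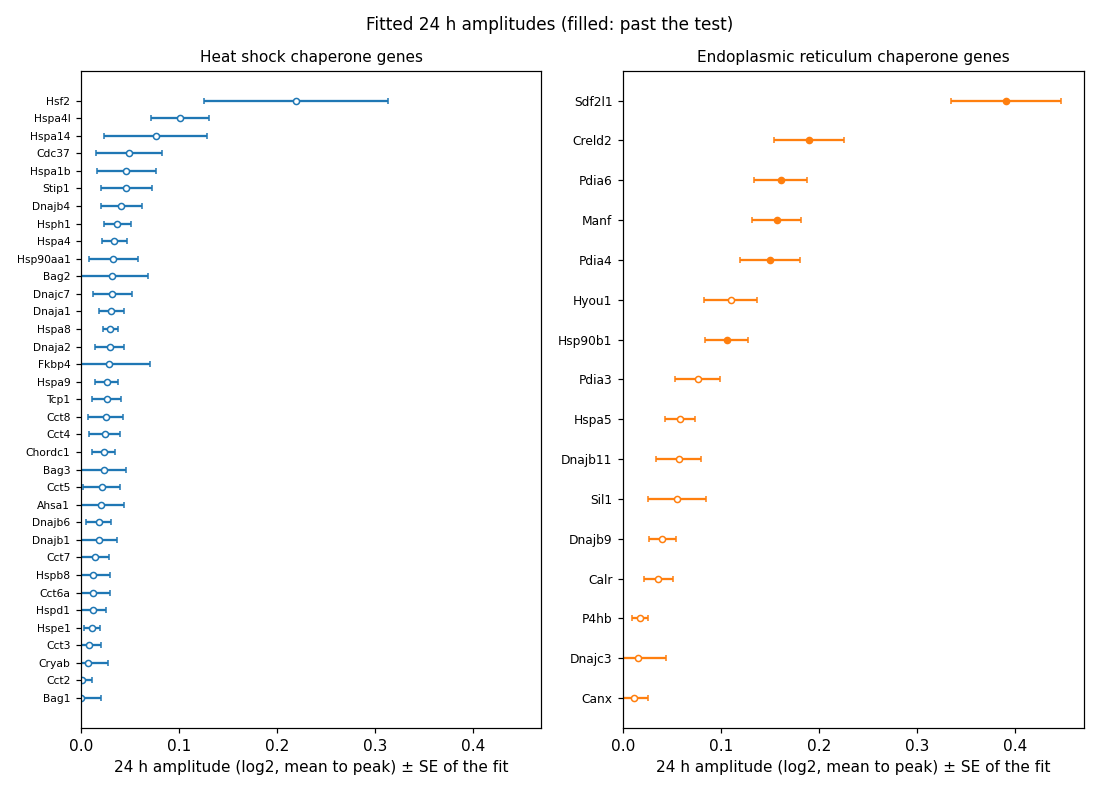
Fitted 24 h amplitude (log2, mean to peak, with the SE of the fit over 48 arrays) of 35 heat shock chaperone genes on the left and of 16 endoplasmic reticulum chaperone genes on the right. Filled points passed the test: none on the left, 6 on the right.

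Rhythms shorter than a day were a subject of the study, with Hspa1b among the genes it followed in tissues, and periods of 12 and 8 h were therefore fitted on top of the line and the 24 h cosine. At 12 h none of the 37 genes passed (1 at an unadjusted p under 0.05, Dnajb6, p = 0.0286, as did 1.29% of all probe sets), and 0% of all probe sets passed. Hspa1b had a 12 h amplitude of 0.03 ± 0.03 log2 (limma, p = 0.54, adjusted p = 0.933), which became 0.02 ± 0.02 (p = 0.783) after the β-actin difference entered the model. Its dimmer probe sets had 12 h amplitudes of 0.063 and 0.062 (unadjusted p = 0.723 and 0.676, limma). At 8 h none passed either (0% of all probe sets), although 9 of the 37 genes had an unadjusted p under 0.05, as did 44.47% of all probe sets.

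A change of the 24 h cosine between the windows was tested with a term for hours 52 to 55. It passed for 1 of 37 genes, Hspa14, and for 1.82% of all probe sets. The fitted amplitude of Hspa14 was 0.13 ± 0.06 log2 in the later window and 0.19 ± 0.05 in the earlier one (limma, adjusted p = 0.0216). The test covers amplitude and peak time together, so that its p does not compare these amplitudes alone. The peak hour of each window was not computed.

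The other genes of protein folding were read in the same fit. Of 41 further cytosolic chaperones and co-chaperones, 11 rose and 9 fell, with a median slope of -0.006 log2 per 24 h. The steepest falls with the smallest p were those of Hspb6, a small heat shock protein (-0.70 ± 0.03, limma, adjusted p = 1.47e-22), and Dnajc9, a histone-binding J protein (-0.43 ± 0.03, adjusted p = 4.44e-19). Hspb6 and Cryab, both small heat shock proteins, thus had slopes of opposite sign. Of 12 further mitochondrial chaperones and proteases 2 rose and 3 fell. Among them Hscb rose by 0.77 ± 0.06 (adjusted p = 2.58e-14), and Trap1, the mitochondrial HSP90, fell (-0.20 ± 0.03, adjusted p = 2.54e-07). Of 16 endoplasmic reticulum chaperones 3 rose and 2 fell. Of 9 other stress genes 4 rose and 3 fell, with Ddit3 at 0.38 ± 0.03 (adjusted p = 2.44e-13) and Atf3 at -0.95 ± 0.12 (adjusted p = 7.38e-09), both transcription factors of the integrated stress response. Hspb11, which fell, stands in this list and among the further cytosolic chaperones, and is counted in both.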

How the data were processed

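The authors deposited probe set values as linear intensity, normalized by them between arrays. The paper's methods name GCRMA in R for the values and MAS5 for present calls, and the processing notes name MAS5. Neither version is given in the sources used here. The values range from 34.8 to 7.612e+05, beyond what a scanner reads, so that a scaling step was applied whose constant is unknown. Log2 differences hold if it was a plain multiplier. Levels were used only to choose the brightest probe set of a gene and to mark means above the median over all probe sets, and are not read as abundance between genes.

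Values were taken to log2 with no added constant. The 64 control probe sets stayed out of all tests, and no probe set was filtered out. Of 45037 probe sets, 34945 had 1 gene symbol, 932 several and 9160 none in the platform annotation. Each probe set was fitted in limma 3.58.1 (R 4.3.3) with a linear term per 24 h and a 24 h cosine, and moderated tests were adjusted by Benjamini-Hochberg at 0.05 over all probe sets. Cosines of 12 and 8 h were added to that model. A change between windows was tested as an interaction. Neighbouring hours were treated as independent (lag-1 residual correlation of the 37 genes: median 0.063, from -0.349 to 0.485). COSOPT was not used, and Fisher's G-test was an alternative. Pair correlations used residuals and 100000 permutations. Scripts were tested on simulated data and ran in Python 3.11.15 (pandas 2.3.3, numpy 2.4.6, scipy 1.17.1), and matplotlib 3.10.9 drew the figures. The number of arrays, 1 per hour, limits the precision.

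All 40 genes were to be named, with full values for those past a test. The genes, families, lists and tests were chosen with earlier results of these data known.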

Additional observations from a re-analysis of the deposited data

Results flagged for a closer look

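The 24 h cosine of Hspa14, an HSP70-like ribosome-binding protein, differed between the later and the earlier window (interaction in limma, adjusted p = 0.0216). Its fitted amplitude was 0.13 ± 0.06 log2 in the later window and 0.19 ± 0.05 in the earlier window. The interaction covers amplitude and peak time together, and the peak hour of each window was not computed. Without the term for hours 52 to 55, where the lowest arrays of Hspa14 lie, the adjusted p was 0.000656, in a setting where 49% of all probe sets passed. With that term and the β-actin difference it was 0.0158, and the fitted change of the cosine was 0.30 ± 0.07 log2. The residuals of Hspa14 from the line and the cosine had the highest correlation between neighbouring hours of the 37 genes (0.485). Each window holds 1 cycle, and the part of the arrays of hours 52 to 55 in the result was not tested further.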

How the results depend on the processing

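Of the 27 chaperone genes with a trend, 12 kept direction and significance under all 13 alternatives and without each of the 48 arrays: Stip1, Chordc1, Cryab, Dnaja1, Dnajb4, Bag3, Tcp1, Cct5, Cct6a, Cct7, Cct8 and Hspd1. Means of 6 h blocks, with 8 points in place of 48, gave 16 genes, 3 higher and 13 lower with time. In that setting 9.74% of all probe sets were higher and 9.49% lower. The later window minus the earlier one, blocked by hour of the cycle, gave 4 higher and 17 lower. There 11.7% of all probe sets were higher and 12.2% lower. The rises of Hspa4l, Ahsa1 and Hspa9 and the falls of Cdc37, Dnaja2 and Cct2 were no longer past the threshold. Leaving out single arrays gave 25 to 28 genes (5 to 7 higher, 20 to 21 lower). Averaging all probe sets of a gene turned the slopes of Hspa8 (-0.014), Hspa4 (0.011) and Dnaja2 (0.026), none of which then passed, and the dimmer probe sets given above differ in slope from the brightest ones. At 24 h Fisher's G-test gave 1 gene (Hspa8), against 0.782% of all probe sets. Leaving out single arrays gave 0 to 1 gene at 24 h (Hspa4l without hour 36). The window interaction gave 2 genes after adding the β-actin difference (Hspa14 and Cct2), against 3.47% of all probe sets, and 7 of 37 without the term for hours 52 to 55, against 49% of all probe sets. Of 14 residual pairs, 5 passed over all arrays, 3 in the later window alone and 1 in the earlier one. The pair of Hsp90aa1 with Hsp90ab1 was not run. An intensity trend in the moderation and leaving out hours 24 and 67 were added after seeing the data. Each hour has a single array, so that the contrast blocked by hour of the cycle is the only pairing. With 1 array per hour, amplitudes near the fitted SE of 0.01 to 0.09 log2 could not be resolved.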
